A study of Mus musculus with 6 samples.

Results

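Cytokine mRNA decay regulators are RNA-binding proteins that set how long inflammatory messages last, and 8 of their genes are described here: Zfp36, Zfp36l1, Zfp36l2, Zc3h12a, Zc3h12d, Rc3h1, Elavl1 and Hnrnpd. They were taken as every non-control probe that the array's annotation assigns to 1 of these symbols, which gave 10 probes among 39429, and all 8 genes were among the 16365 tested. RNA was measured on 6 single-colour arrays, with 3 samples of myeloid cells taken out of infarcted left ventricles (hearts 1, 2 and 4) and 3 taken out of spleens (spleens 1, 2 and 4). All animals were wild-type mice of strain C57BL/6N, sampled on day 3 after an acute myocardial infarction, and the labels give no other treatment, so the spleens too are from infarcted animals. Flow cytometry kept cells with high CD45 and high CD11b that stained weakly for B-cell, T-cell, natural killer and Ly6G antigens, per the labels' protocols, and each organ was analysed singly.

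Many cytokine mRNAs carry AU-rich elements or short stem-loops in their 3' untranslated regions. Proteins of the tristetraprolin family (Zfp36, Zfp36l1, Zfp36l2) bind AU-rich elements and recruit the CCR4-NOT deadenylase, which shortens the poly(A) tail and opens the message to decapping and to the exosome. Regnases (Zc3h12a, Zc3h12d) cut stem-loops as endonucleases, Roquin (Rc3h1) binds stem-loops and recruits deadenylases, and Elavl1 and Hnrnpd bind AU-rich or U-rich stretches, Elavl1 mostly as a stabiliser. In macrophages several of these genes are themselves induced by the inflammatory signals whose messages they later remove.

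Levels are log2 intensities relative to the 75th percentile of the same array, so 0 is the 75th percentile, and changes are heart minus spleen, each with its standard error (SE) from limma's moderated fit. A gene was called when its p, adjusted by the method of Benjamini and Hochberg across the 16365 genes, was under 0.05. All 10 probes were well above background on all 6 arrays, between 52.8% and 63.6% of all probes were on each array, and 0 spots were saturated. The 10 macrophage and monocyte markers checked were all well above background on every array. Of the other cell types' markers, 7 of 10 for neutrophils were called lower in heart, 6 of 6 tested for fibroblasts and 3 of 6 tested for cardiomyocytes were called higher, and 0 of 14 tested for B cells and for T and natural killer cells were called by limma (7 lower at an unadjusted p under 0.05). Most of the fibroblast and cardiomyocyte markers entered the test only through the hearts: among genes well above background on all 6 arrays, 1 of 1 fibroblast markers and 0 of 2 cardiomyocyte markers were called. Summed over their list on the linear scale, in units of each array's 75th percentile, 10 neutrophil markers reached 22.7 to 29.2 in heart and 501 to 1150 in spleen. Fibroblast markers, 10 of them, summed to 7.90 to 9.14 in heart and 0.129 to 0.214 in spleen, where Col3a1, Lum, Pdgfra, Postn, Mgp and Tcf21 were below the detection call on all 3 arrays (Pdgfra and Tcf21 also on all 3 hearts). Cardiomyocyte markers, also 10, summed to 0.650 to 1.05 in heart and 0.294 to 0.486 in spleen. Their part in the members' values was not tested, and in sorted bulk samples fewer cells of a type and less RNA per cell cannot be told apart.

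Zfp36 and Zc3h12a were higher in heart than in spleen, by 4.01-fold and 4.14-fold, and no other member was called. The 2 called members stand against 15.5% of all tested genes called in either direction; 9.04% of all tested genes were called higher in heart and 6.46% lower. In 7 of the 8 members the heart and spleen values did not overlap, 6 of them higher in heart on this scale and Zc3h12d lower, against 41% of all genes; among the 6, the sign of Hnrnpd depends on the scaling. The median change of the members was 0.66, beside 0.11 over all genes, and 0.38 with quantile scaling, beside 0.03 over all genes. At an unadjusted p under 0.05, 5 members were higher and 1 lower, against 32% of all genes in either direction. The count called higher was 0 without heart 1, heart 2 or heart 4, and 3 without spleen 1 or spleen 4. As 8 genes are few, these counts describe the members and were given no test of their own.

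Promoters of the 2 called members are shown because these genes changed together. The sequences are the 150 bases upstream of the RefSeq gene start in GRCm38.p6, 5' to 3' on the gene's strand, for Zfp36 at chr7:28379229-28379378 (minus strand) with a CArG box and an EGR site in capitals, and for Zc3h12a at chr4:125127882-125128031 (minus strand) with GC boxes in capitals.
Zfp36: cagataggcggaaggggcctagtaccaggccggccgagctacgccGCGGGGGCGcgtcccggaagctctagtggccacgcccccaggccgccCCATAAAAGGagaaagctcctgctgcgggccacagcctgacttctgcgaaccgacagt
Zc3h12a: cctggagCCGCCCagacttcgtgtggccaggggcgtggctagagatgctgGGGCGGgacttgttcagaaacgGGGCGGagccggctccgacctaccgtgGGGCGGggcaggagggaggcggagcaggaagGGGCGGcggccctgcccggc
The CArG box, the letter pattern named after serum response factor sites, lies at −58 to −49 from the start of Zfp36 and overlaps by a base a GC box on the other strand, which is left in lower case. The EGR site, searched as GCGNGGGCG, lies at −105 to −97. Matches were searched on both strands of the table's whole windows, 300 bases each and longer than the printed stretch, since they run past the gene start. In the 32851 windows, a CArG box was found in 1.63%, an EGR site in 5.55% and the GC box GGGCGG in 35.7%. Windows were found for 7 of the 8 members (not Zfp36l2). Among those 7, a CArG box was also matched in Hnrnpd, from the start to position 10 downstream. GC boxes do not set Zc3h12a apart: its window held 5, that of Rc3h1 held 6, that of Hnrnpd 3 and that of Zc3h12d 1. The AP-1 letters TGANTCA, held by 7.81% of windows, were matched in Zfp36l1 and Rc3h1, and an NF-kappaB site, held by 8.46%, in 0 of the 7. A match describes letters in these windows and is not a measured binding site.

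Zfp36 encodes tristetraprolin, which removes Tnf and other AU-rich messages in macrophages. Its probe (mm9 chromosome 7, 29161940 to 29161999, minus strand) gave log2 levels of 2.13, 2.24 and 2.42 in hearts 1, 2 and 4, against 0.45, −0.37 and 0.69 in spleens 1, 2 and 4. All hearts lay above all spleens, and the hearts lay closer together than the spleens did. Hearts averaged 2.26 ± 0.14 and spleens 0.26 ± 0.56 (SD, n = 3 each), a change of 2.00 ± 0.30 (SE, adjusted p = 0.0114) or 4.01-fold on the linear scale. The arrays lay on 3 slides and only slide 2 held both tissues: the change within it, heart 1 minus spleen 4, was 1.44. Between samples with the earlier date in their titles, 2 per tissue, it was 2.14 ± 0.34 (SE, adjusted p = 0.0390), and between heart 4 and spleen 4, which carry the later date, it was 1.73. With slide as a fixed block the call was lost (1.44, adjusted p = 0.253), as it was without heart 1, heart 2 or heart 4 (2.07, 2.02 and 1.93, adjusted p = 0.0553, 0.0591 and 0.0632).

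**Figure D1:**
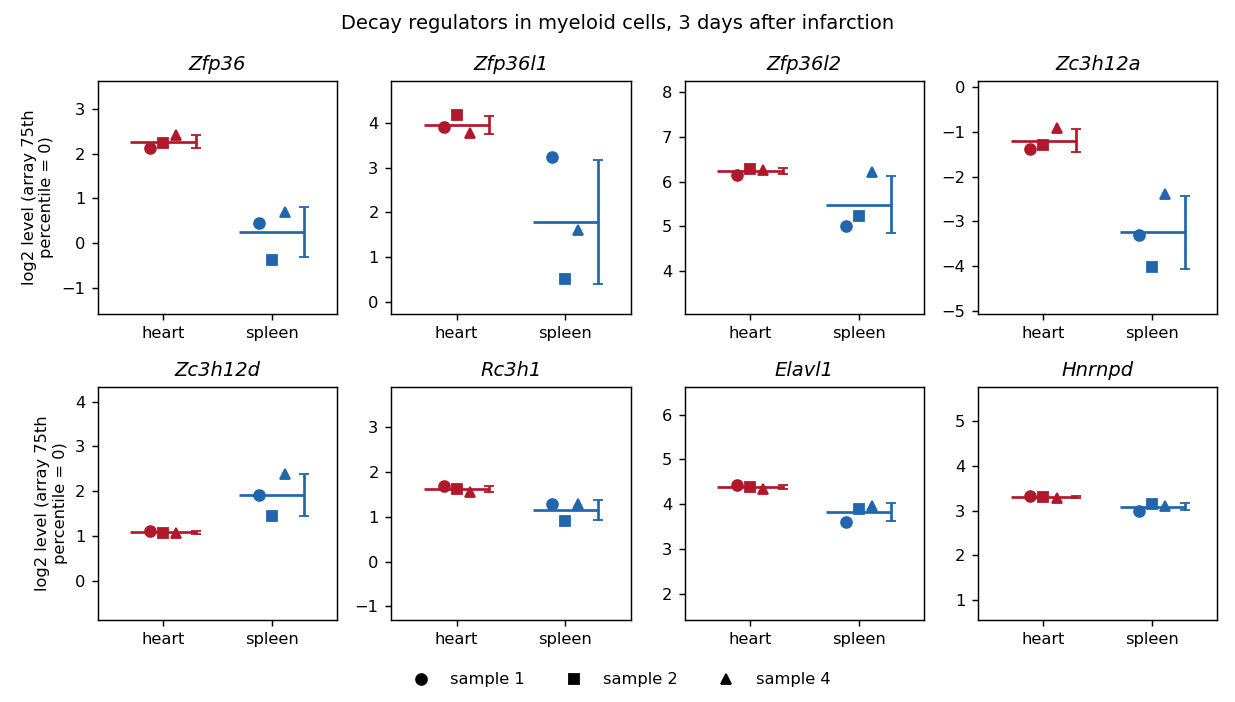
Log2 level of each decay regulator (0 is the array's 75th percentile) in myeloid cells of the heart (left, red) and spleen (right, blue), with 1 symbol per sample, the mean as a horizontal line and the SD (n = 3) as a bar. Every panel spans the same number of log2 units, so the wider scatter of the spleen samples and the separation of the tissues for Zfp36 and Zc3h12a can be compared between panels.

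Zc3h12a encodes Regnase-1, the endonuclease that cuts stem-loops in messages such as that of Il6. Its probe (mm9 chromosome 4, 124795870 to 124795929, minus strand) had levels of −1.39, −1.28 and −0.91 in hearts 1, 2 and 4, against −3.31, −4.02 and −2.40 in spleens 1, 2 and 4. The groups did not overlap, and the 6 arrays stood in the same order as for Zfp36: heart 4, heart 2, heart 1, spleen 4, spleen 1 and spleen 2. Hearts averaged −1.19 ± 0.25 and spleens −3.24 ± 0.81 (SD, n = 3 each), a change of 2.05 ± 0.41 (SE, adjusted p = 0.0244) or 4.14-fold. The probe was dim, with processed signals of 615, 639 and 950 in hearts 1, 2 and 4. In spleens 1, 2 and 4 they were 200, 104 and 343. With another background correction, normexp, the change of Zc3h12a was 1.705 (adjusted p = 0.0161), and that of Zfp36 was 1.95. Heart 1 minus spleen 4, on the same slide, gave 1.01, heart 4 minus spleen 4 gave 1.49, and the samples of the earlier date gave 2.33 ± 0.31 (SE, adjusted p = 0.0294). The call was lost with slide as a fixed block (1.01, adjusted p = 0.373) and without heart 1, heart 2 or heart 4 (2.15, 2.10 and 1.91, adjusted p = 0.0876, 0.0919 and 0.0986).

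Zfp36l1, a tristetraprolin paralog, was not called, and its spleen samples were the most scattered of all members. Its probe (mm9 chromosome 12, 81209022 to 81209081, minus strand) had levels of 3.91, 4.17 and 3.78 in hearts 1, 2 and 4, against 3.24, 0.51 and 1.60 in spleens 1, 2 and 4. The hearts lay above every spleen, but spleen 1 came close to them and spleen 2 was far below. Hearts averaged 3.95 ± 0.19 and spleens 1.78 ± 1.38 (SD, n = 3 each), a difference of 2.17 ± 0.65 (SE, adjusted p = 0.0724) with a 95% interval of 0.61 to 3.73. Without spleen 1 it was 2.90 and was called (adjusted p = 0.00862); it was also called with arrays scaled to their median (2.29, adjusted p = 0.0368) and with array weights per tissue (2.17, adjusted p = 0.0348). Spleen 1 was also the sample with the highest lymphocyte signal. B-cell markers, 8 of them, summed to 2.76 to 3.1 in heart and to 112, 5.99 and 4.59 in spleens 1, 2 and 4, and 10 T-cell and natural killer markers summed to 4.69 to 5.75 in heart and to 76.3, 13.9 and 3.60 in spleens 1, 2 and 4. Of the T-cell and natural killer markers, Cd3d, Cd3g, Ncr1 and Klrb1c were below the detection call on all 3 hearts. The part of lymphocytes in the Zfp36l1 level of spleen 1 was not tested.

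Zfp36l2, the other paralog, was bright in both tissues. Its probe (mm9 chromosome 17, 84583415 to 84583474, minus strand) had levels of 6.16, 6.28 and 6.26 in hearts 1, 2 and 4, against 5.02, 5.22 and 6.21 in spleens 1, 2 and 4. Spleen 4 lay within the range of the hearts and the other 2 spleens below it, so the groups overlapped. The difference was 0.75 ± 0.33 (SE, adjusted p = 0.174) with a 95% interval of −0.04 to 1.54. Without spleen 4 it was 1.11 and was called (adjusted p = 0.00916). On slide 2 heart 1 minus spleen 4 was −0.05, and the samples of the earlier date gave 1.10 ± 0.21 (SE, adjusted p = 0.0513).

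Whether the 3 paralogs changed by different amounts was tested on their differences within each array, by an exact permutation test (two-sided, n = 3 per tissue) whose smallest possible p is 0.1. The change of Zfp36 exceeded that of Zfp36l2 by 1.26 (exact permutation p = 0.1, adjusted p = 0.3 over the 3 pairs), and the 3 hearts did not overlap the 3 spleens in this difference. The change of Zfp36l1 exceeded that of Zfp36l2 by 1.42 (exact permutation p = 0.4, adjusted p = 0.6). Zfp36 and Zfp36l1 differed by −0.17 in their change (exact permutation p = 0.8, adjusted p = 0.8). A design of this size cannot reach 0.05, so no pair is shown to differ or to act alike.

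Zc3h12d, a second regnase that is known from lymphocytes, was the sole member with lower values in heart. Its probe (mm9 chromosome 10, 7589850 to 7589909, plus strand) had levels of 1.11, 1.06 and 1.07 in hearts 1, 2 and 4, against 1.91, 1.44 and 2.39 in spleens 1, 2 and 4. The 3 hearts were nearly equal and all spleens lay above them. The difference was −0.83 ± 0.26 (SE, adjusted p = 0.0826) with a 95% interval of −1.47 to −0.20. Spleen 2 was the lowest spleen, and without it the difference was −1.07 and was called (adjusted p = 0.0388). The part of lymphocytes in its spleen levels was not tested. Heart 1 minus spleen 4 on slide 2 was −1.28.

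Rc3h1 encodes Roquin-1, which binds stem-loops in Tnf and Icos messages. Its brighter probe (mm9 chromosome 1, 162905017 to 162905076, plus strand) had levels of 1.69, 1.63 and 1.55 in hearts 1, 2 and 4, against 1.29, 0.91 and 1.29 in spleens 1, 2 and 4. The groups did not overlap, and the difference of 0.47 ± 0.18 (SE) was not called (adjusted p = 0.139). A dimmer probe, which spans 1918 bases of the genome (162895873 to 162897790), gave a difference of 0.48, with heart and spleen values that overlapped (adjusted p = 0.305 over all probes). Both probes pointed the same way, and neither passed the test.

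Elavl1, also called HuR, protects AU-rich messages from decay. Its brighter probe (mm9 chromosome 8, 4288411 to 4288470, minus strand) had levels of 4.43, 4.38 and 4.33 in hearts 1, 2 and 4, against 3.59, 3.90 and 3.96 in spleens 1, 2 and 4. The difference was 0.56 ± 0.18 (SE, adjusted p = 0.0810) with no overlap, and it was 0.18 (adjusted p = 0.445) with quantile scaling. The dimmer probe (4285514 to 4285573) gave 0.12 with overlap (adjusted p = 0.799 over all probes), so the 2 probes disagreed in size, and their mean gave 0.34. Hnrnpd encodes AUF1, which binds AU-rich elements and mostly promotes decay. Its probe (mm9 chromosome 5, 100390181 to 100390240, minus strand) had levels of 3.32, 3.31 and 3.29 in hearts 1, 2 and 4, against 3.00, 3.16 and 3.11 in spleens 1, 2 and 4. The difference was 0.22 ± 0.15 (SE, adjusted p = 0.381) with a 95% interval of −0.15 to 0.59, and its sign turned with quantile scaling of the arrays (−0.10) and in the deposited value table (−0.06), so no direction is given for Hnrnpd. The median change of all genes was 0.22 with arrays scaled to their median and 0.03 with quantile scaling, and differences of that size depend on the scaling.

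**Figure D2:**
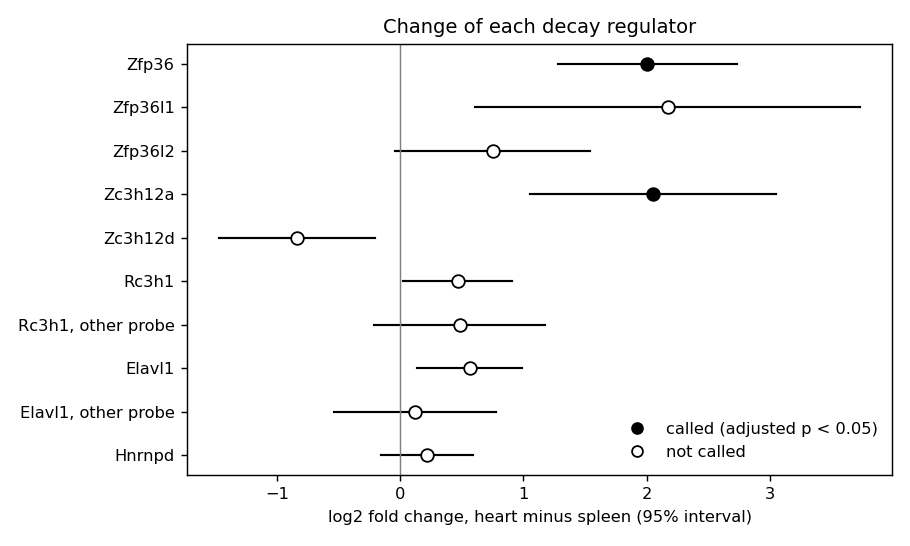
Log2 fold change, heart minus spleen, of each decay regulator with its 95% interval; filled points passed an adjusted p of 0.05 and open points did not. Zfp36 (2.00) and Zc3h12a (2.05) are the filled points, Zfp36l1 (2.17) has the widest interval, Zc3h12d (−0.83) is the sole gene left of 0, and the other probes of Rc3h1 and Elavl1 are drawn under their brighter ones.

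The members shared a wider scatter over spleens than over hearts. The spleen SD was 3.13 to 16.8 times the heart SD in the 8 genes, and over all genes the SD was larger in spleen for 84.1%, with medians of 0.144 in heart and 0.404 in spleen. Spleen 4 was the spleen nearest to the heart mean for Zfp36, Zfp36l2, Zc3h12a, Rc3h1 and Elavl1, spleen 1 for Zfp36l1, and spleen 2 for Zc3h12d and Hnrnpd. Over all genes spleen 4 was nearest for 40.3%.

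**Figure D3:**
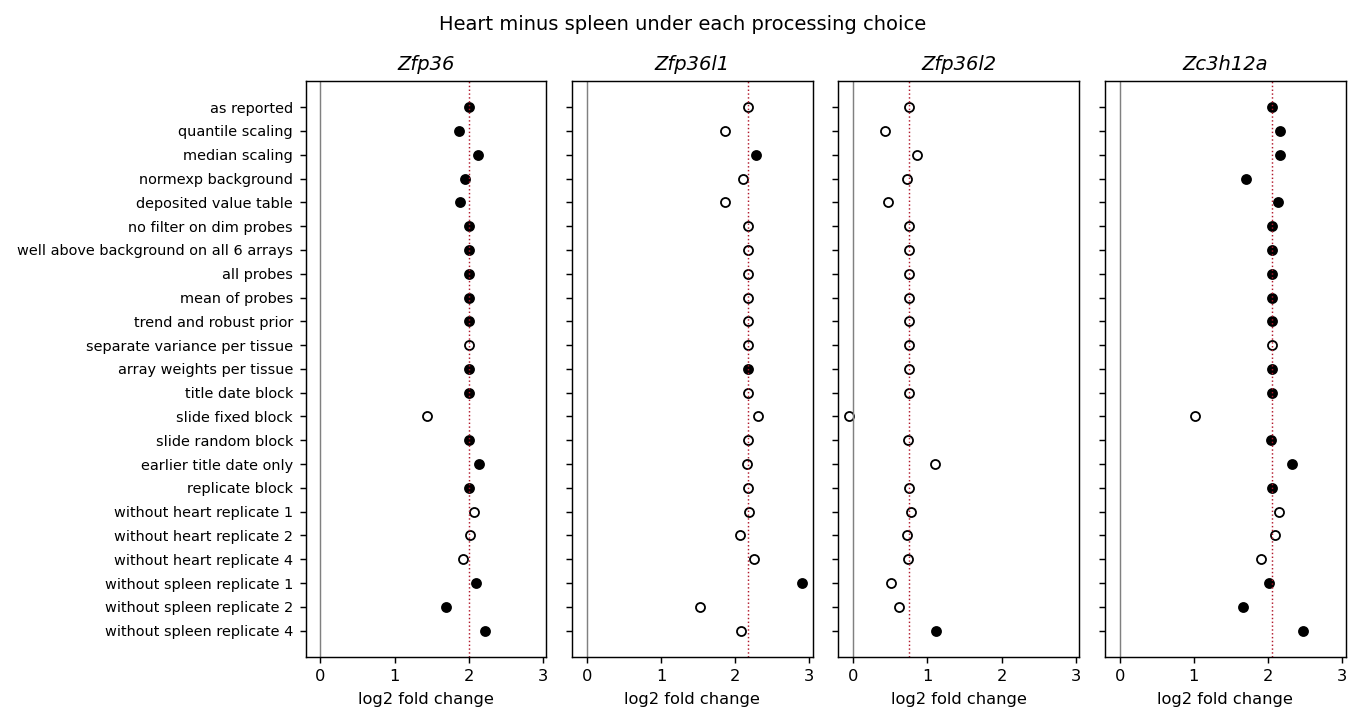
Log2 fold change, heart minus spleen, of Zfp36, Zfp36l1, Zfp36l2 and Zc3h12a as reported (top line, dotted red line) and under each of 22 other processing choices or sample sets; filled points passed an adjusted p of 0.05. Zfp36 and Zc3h12a were each called under 17 of the 22, Zfp36l1 under 3 and Zfp36l2 under 1, and the only value below 0 is that of Zfp36l2 with slide as a fixed block (−0.05).

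The genes whose levels followed Zfp36 most closely over the 6 arrays, among 14668 well above background on all of them, were Appl2 (Pearson r = 0.9995), an endosomal adaptor, Nop16 (0.9985), a nucleolar protein, and Abl2 (0.9978), a tyrosine kinase. For Zc3h12a they were Tars (0.9971), a threonyl-tRNA synthetase, Pdlim4 (0.9964), a PDZ and LIM domain protein, and Msto1 (0.9963), a mitochondrial protein. The correlation between Zfp36 and Zc3h12a was 0.9827. The 6 arrays fall into 2 tissues, so each r includes the difference between them, and it is given as a description.

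Of the other RNA-binding proteins of these pathways, 14 were tested out of 17 listed. Of the 14, 3 were called higher in heart and 0 lower (also 0 lower at an unadjusted p under 0.05), against 9.04% and 6.46% of all genes. The list's median change was 0.34, or 0.17 with quantile scaling, beside 0.11 and 0.03 over all genes. Elavl4, known mainly as a neuronal relative of Elavl1, had levels of 3.33, 3.60 and 3.40 in hearts 1, 2 and 4, against −0.18, 0.76 and 1.65 in spleens 1, 2 and 4, a change of 2.70 ± 0.45 (SE, adjusted p = 0.0149). Arid5a, which stabilises Il6 messages, changed by 0.99 ± 0.21 (SE, adjusted p = 0.0277), and Celf1, which binds GU-rich elements and promotes decay, by 0.97 ± 0.16 (SE, adjusted p = 0.0148). The Roquin paralog Rc3h2 differed by 1.02 ± 0.60 (SE, adjusted p = 0.300) with overlapping groups, and Ybx1, the brightest of those not called, by 0.38 (adjusted p = 0.200). Elavl4, Arid5a and Celf1 each lost the call without any 1 of the hearts, at adjusted p between 0.0670 and 0.113, and Arid5a also without spleen 2 (0.95, adjusted p = 0.0652) and with median scaling (1.10, adjusted p = 0.0640).

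Genes listed for the degradation of the bound message, enzymes and their partners together, were called higher at about the share of all genes (9.04%). None was called lower, against 6.46% of all genes. Those called were Btg2, Tob2, Pnrc1 and Exosc9. Of 18 genes of deadenylases and their adaptors, 2 were called higher and 0 lower, with a median of 0.01 whose sign turned to −0.13 under quantile scaling. Both were adaptors of the BTG and Tob family, which bring the CCR4-NOT enzyme to messages, and none of the 11 genes with the prefix Cnot was called. At an unadjusted p under 0.05, 3 of the 18 were higher and 3 lower, close to the 32% of all genes in either direction. Btg2 had levels of 4.56, 4.63 and 4.78 in hearts 1, 2 and 4, against 2.77, 1.73 and 2.74 in spleens 1, 2 and 4, a change of 2.24 ± 0.31 (SE, adjusted p = 0.00914). Tob2 had levels of 3.63, 3.68 and 3.48 in the hearts, against 1.76, 1.86 and 1.75 in the spleens, a change of 1.81 ± 0.16 (SE, adjusted p = 0.00214), and its 3 values lay close together in each tissue. Btg1, the brightest of the 18 not called, differed by 0.82 (adjusted p = 0.0778), or by 0.99 (adjusted p = 0.0465) without spleen 1. Btg2 lost the call without heart 2 (2.25, adjusted p = 0.0517) or heart 4 (2.18, adjusted p = 0.0546).

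Of 11 genes of decapping and 5'-to-3' decay, 1 was called higher and 0 lower (2 lower at an unadjusted p under 0.05), with a median of 0.06. It was Pnrc1, a nuclear coregulator that also binds the decapping enzyme, with a change of 1.47 ± 0.31 (SE, adjusted p = 0.0280), and the decapping scaffold Edc4 differed by 0.05 (adjusted p = 0.870). Of 12 exosome genes, 1 was called higher and 0 lower (also 0 unadjusted), with a median of 0.14. It was the core subunit Exosc9, with levels of 5.48, 5.68 and 5.76 in hearts 1, 2 and 4, against 3.39, 3.90 and 4.49 in spleens 1, 2 and 4, a change of 1.71 ± 0.30 (SE, adjusted p = 0.0168). Exosc2, the brightest exosome gene, differed by 0.05 (adjusted p = 0.868). Pnrc1 and Exosc9 lost the call without any 1 of the hearts (adjusted p between 0.0698 and 0.113), and Pnrc1 also without spleen 2 (1.23, adjusted p = 0.0594), with quantile scaling (1.14, adjusted p = 0.119) and in the deposited value table (1.15, adjusted p = 0.116).

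Signalling genes act on the decay factors after they are made: p38 and its kinase Mapkapk2 phosphorylate and restrain tristetraprolin, Dusp1 ends p38 activity, Ppp2ca is a catalytic subunit of the phosphatase that restores tristetraprolin, and Malt1 cuts Regnase-1. Of 13 tested out of 14 listed, 4 were called higher and 1 lower, against 9.04% and 6.46% of all genes. The count higher was 2 with quantile scaling, with median scaling and in the deposited value table, 1 with no filter on dim probes, 1 without heart 1, 2 or 4, 1 with the replicate block, 2 without spleen 2, and 0 with a separate variance per tissue or with slide as a fixed block. The list's median of 0.06 has no settled sign (−0.14 with quantile scaling, −0.15 with slide as a fixed block and −0.0097 without spleen 1). Dusp1 had levels of 5.90, 6.04 and 6.15 in hearts 1, 2 and 4, against 2.96, 1.54 and 2.87 in spleens 1, 2 and 4, a change of 3.57 ± 0.40 (SE, adjusted p = 0.00440). The 2 listed kinases that activate p38 went opposite ways. Map2k6 had levels of −4.22, −4.18 and −4.17 in the hearts, against −2.39, −2.35 and −1.86 in the spleens, a change of −1.99 ± 0.20 (SE, adjusted p = 0.00334). Map2k3 had levels of 1.86, 1.82 and 1.86 in the hearts, against 0.06, 1.03 and 0.49 in the spleens, a change of 1.32 ± 0.27 (SE, adjusted p = 0.0242), and it lost the call without any 1 of the hearts (adjusted p between 0.0944 and 0.102). Mapkapk2 differed by 0.45 (adjusted p = 0.467), Mapkapk3 by 0.06 (adjusted p = 0.929) and Malt1 by −0.56 (adjusted p = 0.109). The arrays measure RNA, and the activity of these proteins was not measured.

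Most of the tested messages in a list of short-lived inflammatory mRNAs were higher in heart. Il12b, Csf2 and Icos were listed but not tested, and each was below the detection call on all 3 hearts. Il12b and Csf2 were also below it on all 3 spleens. The part of fibroblasts in the levels of the listed messages was not tested. Of 24 short-lived inflammatory mRNAs tested out of 27 listed, 21 were called higher and 0 lower (1 lower at an unadjusted p under 0.05), with a median of 4.69, or 4.54 with genes dim on all spleens held at their bound. Among the 13 of them well above background on all 6 arrays, 11 were called higher, with a median of 2.32, against 8.65% of the 14669 such genes. Chemokine messages led the list: Ccl7 was higher in heart by at least 3600-fold, Cxcl3 by at least 818-fold and Cxcl1 by at least 522-fold. These are bounds because the probes were at background on all 3 spleens by the scanner program's call. Such probes entered the test only through the hearts. Limma's adjusted p (9.82e-06, 1.07e-05 and 8.99e-05, in that order) belongs to the values as measured. The bounds themselves were not tested. The mean level of Ccl7 as measured was 6.27 in heart and −7.46 in spleen, that of Cxcl3 was 4.13 in heart and −7.65 in spleen, and that of Cxcl1 was 3.48 in heart and −7.78 in spleen.

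Tnf, the message best known as a target of tristetraprolin, had levels of 0.25, −0.05 and 0.78 in hearts 1, 2 and 4, against −1.73, −1.71 and −2.54 in spleens 1, 2 and 4. The change was 2.32 ± 0.32 (SE, adjusted p = 0.00927), and without heart 1 it was 2.36 (adjusted p = 0.0506). Il6, a target of Regnase-1 and of Arid5a, had levels of 1.98, 1.63 and 2.85 in the hearts, against −2.96, −6.64 and −5.47 in the spleens, where 1 of the 3 arrays was well above background. Its change was 7.18 ± 0.91 (SE, adjusted p = 0.00700), or 6.74 with the dim arrays held at the lowest detected level. Not called were Myc (−0.28, adjusted p = 0.847, with spleen 4 left out of the fit for an outlier spot), Tfrc (−0.39) and Tnfrsf4 (−1.14); Tfrc and Tnfrsf4 were named after their values were seen. Leaving out heart 1 brought the count of 21 to 11, and leaving out heart 2 or heart 4 to 12; it was 3 with a separate variance per tissue, 7 with slide as a fixed block and 13 with the earlier date alone.

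**Figure D4:**
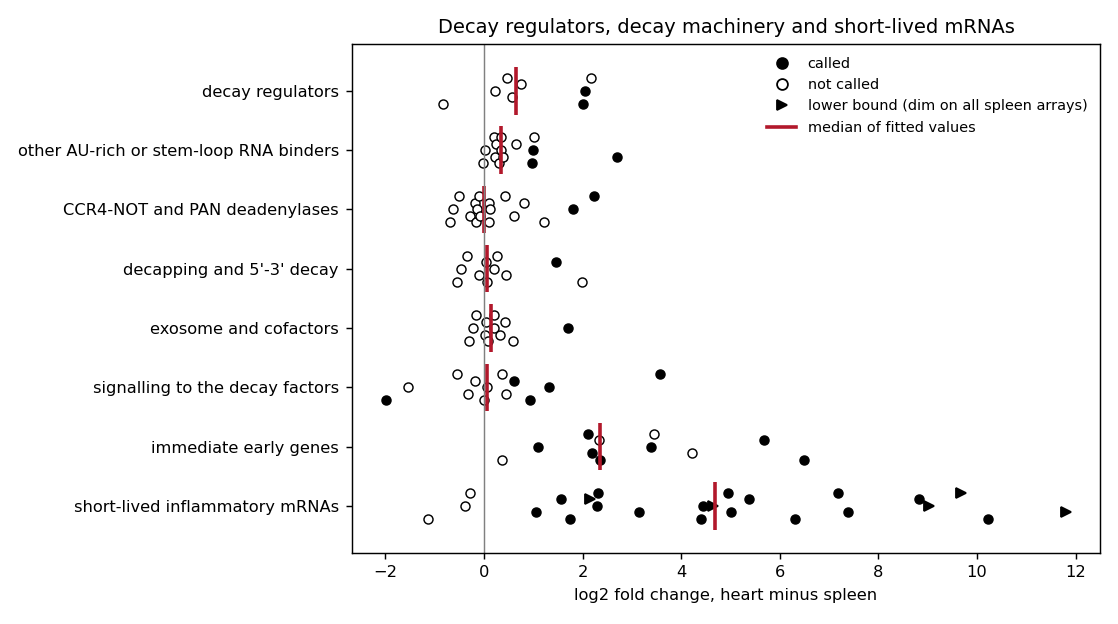
Log2 fold change, heart minus spleen, of every tested gene in the decay regulators, the 5 lists of decay machinery and signalling, the immediate early genes and the short-lived inflammatory mRNAs; filled symbols were called, triangles are lower bounds of genes dim on all spleen arrays, and red lines are medians of the fitted values. Medians lie between 0.01 and 0.34 in the machinery and signalling lists, at 0.66 in the regulators and at 4.69 in the inflammatory mRNAs.

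Immediate early genes are those that cells switch on within minutes of stimulation or handling. Of 11 tested out of 12 listed, 7 were called higher and 0 lower (10 and 0 at an unadjusted p under 0.05), with a median of 2.35, and 9.04% of all genes were called higher. Egr2 changed by 6.49 ± 0.91 (SE, adjusted p = 0.00931), Fosb by 5.69 ± 0.98 (SE, adjusted p = 0.0164) and Atf3 by 3.39 ± 0.42 (SE, adjusted p = 0.00621). Dusp2, the brightest of those not called, had levels of 4.85, 4.90 and 5.35 in hearts 1, 2 and 4, against 4.51, 1.50 and 2.08 in spleens 1, 2 and 4 (2.34 ± 0.75, SE, adjusted p = 0.0862; 3.24, adjusted p = 0.00291, without spleen 1). Spleen 1 thus stood near the hearts for Dusp2 as it did for Zfp36l1. Leaving out heart 1 or heart 2 brought the count of 7 to 4, and leaving out heart 4 to 3; it was 0 with a separate variance per tissue and 0 with slide as a fixed block. Fosb lost the call without any 1 of the hearts (adjusted p between 0.0687 and 0.0752), and Egr2 without heart 4 (adjusted p = 0.0545). The part of cell isolation in the levels of these genes and of the members was not tested.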

How the data were processed

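The submitters' processing notes name Agilent Feature Extraction 10.7.3.1 as the program behind the deposited spot intensities. Its processed signal was background-corrected by the program but left unscaled between arrays, per the file headers. The deposited value table holds log2 values; between arrays, its differences tracked those of quantile-normalized signals (r 0.9993 to 0.9999, slope 0.9885 to 0.9967, 19313 probes, 15 pairs). Every column median was 0, so the baseline subtracted from each probe stays unknown, and the table served as an alternative only.

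Log2 processed signal minus the array's 75th percentile was compared with limma 3.58.1 in R 4.3.3 (data.table, version 1.17.8; lmFit and eBayes, two-sided, n = 3 per tissue), without control and outlier spots, averaging spots of a probe. A probe was tested if well above background on all 3 arrays of a tissue (21801 probes), and the brightest tested probe stood for its gene (16365 genes). Of 39429 probes, 26412 were named through RefSeq accessions. Probe coordinates are mm9 as the files give them; where they lie relative to exons was not analysed here. Whether related genes share signal on a probe was not analysed. The number of arrays limits precision. A bound sets the brighter tissue's mean against, per dim array, the higher of the lowest detected level and the probe's own.

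The members and lists were chosen with earlier results of these data known. All members are named; from each list, the 3 called genes with the largest change (measured on all arrays or bounded) and the brightest not called; Dusp1, Malt1, Mapkapk2, Rc3h2, Tnf and Il6 always; and the 3 genes most correlated with Zfp36 and with Zc3h12a. Samples with the same number did not deviate together (r −0.05, 0.04 and 0.01), so numbers were not used to pair them. The labels do not say whether a heart and a spleen share an animal. The fit was run on simulated data with known changes, as a check of the mean estimated change that set no limit on false calls. Promoter windows are from RefSeq (GRCm38.p6). Figures used Python 3.11.15 with matplotlib 3.10.9.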

Additional observations from a re-analysis of the deposited data

How the results depend on the processing

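With 3 arrays per tissue, the calls rest on single samples and on how spread is shared. The 2537 called genes were 1476 with no filter on dim probes, 54 with a separate variance per tissue, 92 with slide as a fixed block, and 458 to 4144 with 1 sample left out (458, 484 and 509 without heart 1, 2 and 4; 4144 without spleen 4). Members called higher were 0 with a separate variance per tissue and 0 with slide as a fixed block, and 0 to 3 with 1 sample left out; members called lower were 0 to 1, the 1 being Zc3h12d without spleen 2. With a separate variance, Zfp36 had an adjusted p of 0.199 and Zc3h12a of 0.234. With the replicate block 1512 genes were called; Zfp36 (adjusted p = 0.0271) and Zc3h12a (adjusted p = 0.0296) stayed called, and Arid5a, Celf1, Pnrc1 and Map2k3 were not. Values that turned sign were: Hnrnpd −0.10, Edc4 −0.23, Mapkapk3 −0.29, the deadenylase median −0.13 and the signalling median −0.14 with quantile scaling; Hnrnpd −0.0572, Edc4 −0.20, Mapkapk3 −0.26, Myc 0.38, the deadenylase median −0.12 and the signalling median −0.14 in the deposited value table; Zfp36l2 −0.0512, Exosc2 −0.0506, Mapkapk3 −0.10, Mapkapk2 −0.15 and the signalling median −0.15 with slide as a fixed block; the deadenylase median −0.0412 and the exosome median −0.0448 with the earlier date alone. With 1 sample left out, Exosc2 ran from −0.0021 to 0.0724, Mapkapk3 from −0.33 to 0.36, the deadenylase median from −0.085 to 0.056 and the signalling median from −0.0097 to 0.36. The medians of the members and of the other RNA binders were 0.40 and 0.17 in the value table. With no filter on dim probes, Arid5a (adjusted p = 0.0612), Pnrc1 (0.0583) and Map2k3 (0.0513) lost the call, and with the earlier date alone 7 named genes did, among them Pnrc1 (0.138). The Zfp36 minus Zfp36l1 difference was 0.0020 with quantile scaling, 0.0205 in the value table and −0.80 to 0.16 with 1 sample left out. Of the 20 named genes that were called, 0 turned sign under any of the 22 alternatives, and 17 lost the call with a separate variance, 17 with slide as a fixed block and 10 to 11 without a heart. The cause of these shifts was not tested, beyond the fewer samples, the smaller residual freedom or the larger number of tests that the alternatives bring.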
